A study of Mus musculus with 6 samples.

Results

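The 39 protein-coding Hox genes of the mouse lie in 4 clusters, and their RNA was read from gene counts of small-intestinal adenomas. Members were every gene of the deposited tables whose symbol is Hoxa, Hoxb, Hoxc or Hoxd followed by a number, 39 of 46078 genes. HoxA holds 11 of them (mm10 chromosome 6), HoxB 10 (chromosome 11, 96194316 to 96368256), HoxC 9 (chromosome 15, 102921103 to 103036852) and HoxD 9 (chromosome 2, 74668310 to 74765142). The tumors came from 3 miR-34a/b/c-/-;ApcMin/+ mice (knockout) and 3 miR-34a/b/c+/+;ApcMin/+ mice (wild-type), all of the C57BL6/SV129 background and aged 18 weeks. All 6 mice carried ApcMin, a truncating allele of the Wnt regulator Apc that gives rise to intestinal adenomas. For each mouse, RNA of 3 pooled tumors made up the library, so the mouse was the replicate, and where along the small intestine each tumor grew is not given in the labels. The genotype comparison asks which transcripts differ in adenomas that lack the 3 microRNAs.

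Hox genes encode homeodomain transcription factors that give cells their position along the body axis. Within a cluster the genes stand in the order in which they are used from head to tail, and genes with the same number in different clusters are paralogs descended from 1 ancestral gene. In the gut, Hox genes are used by the mesenchyme and by the epithelium, and low-numbered genes act further forward than high-numbered ones. The clusters are silenced by Polycomb complexes, opened by trithorax proteins, and activated by retinoic acid and by the Cdx factors. Hox proteins bind DNA together with TALE homeodomain proteins such as Meis and Pknox.

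Library totals were between 26375035 and 38354355 counts. Mir34a, Mir34b and Mir34c, the deleted loci, had 0 counts in all 6 libraries, so they do not check the genotype labels. Epithelial markers were abundant in every library, with summed levels between 12042 and 17712 CPM (counts scaled to the TMM library size). Xist and Y-linked transcripts marked knockout mouse 2 and wild-type mouse 3 as male and the other 4 as female. Nothing in the labels says that the mice were littermates, and the p-values measure the spread between these mice.

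Hox transcripts were scarce and unevenly spread over the clusters. Together the 39 genes took 13604 counts, between 446 and 4425 per library. HoxA genes held 85.2% of these counts, HoxB genes 11.1%, HoxC genes 2.35% and HoxD genes 1.35%. Of the 39 members, 27 had at least 1 count, 16 had counts in all 6 libraries, and 19 had enough counts to be tested: 9 of HoxA, 7 of HoxB, 2 of HoxC and 1 of HoxD.

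The members at 0 were mainly those with high numbers. No count in any library was seen for 12 members: Hoxa11, Hoxb1, Hoxb13, Hoxc10, Hoxc11, Hoxc12, Hoxc13, Hoxd1, Hoxd3, Hoxd10, Hoxd12 and Hoxd13. Among these, Hoxb13 is known from the prostate and the hindmost gut, and Hoxd12 and Hoxd13 from the limb and the hindgut, while Hoxb1 and Hoxd1 are used at the front of the axis, Hoxb1 in the hindbrain. A count of 0 allows up to 3 counts, or 0.0720 to 0.106 CPM depending on the library, and covers counting error only. Another 8 members had counts but too few to test, at most 81 in all: Hoxa13, Hoxb9, Hoxc6, Hoxc8, Hoxc9, Hoxd4, Hoxd9 and Hoxd11. Hoxa13, a gene of the hindgut and the urogenital tract, had 2, 2 and 0 counts in knockout tumors, against 1, 0 and 0 in wild-type tumors. Other genes on the same strand, Gm28230 included, cover 62.3% of the annotated exon bases of Hoxd3 and 52.3% of those of Hoxd4, so their counts are uncertain. Hoxd3 and Hoxd4 share 388 of these bases with each other.

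Per unit of length, 3 genes of the middle and end of HoxA led the family. Over the 6 libraries the mean level was 28.4 TPM (counts scaled for the length of the annotated exons and for the library) for Hoxa5, 17.6 TPM for Hoxa7 and 8.41 TPM for Hoxa9. The next were Hoxb4 at 4.31 TPM, Hoxa6 at 3.50 TPM and Hoxa3 at 3.00 TPM. These neighbours in the order did not separate beyond the spread between mice: Hoxa5 alone was measured between 3.19 and 60.4 TPM. With the longest transcript as the length, Hoxa3 at 5.50 TPM lay above Hoxb4 at 3.40 TPM and Hoxa6 at 2.76 TPM.

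Within HoxA, the level differed far more between mice than between genotypes, and it did so from Hoxa5 onward. Hoxa9, known for keeping blood progenitors immature and as a leukaemia gene, had 42.2, 0.231 and 13.7 CPM in knockout mice 1, 2 and 3, and 22.4, 1.73 and 6.47 CPM in wild-type mice 1, 2 and 3. Mouse 2 of each genotype was the lowest of its group and mouse 1 the highest. The wild-type values all lay within the range of the knockout values. The highest library was 183 times the lowest, a ratio that is imprecise because the lowest, knockout mouse 2, had 7 counts.

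Hoxa7, which acts with Hoxa9 in blood cells, had 39.5, 0.264 and 22.7 CPM in the knockout mice and 19.0, 1.92 and 9.85 CPM in the wild-type mice. Hoxa5, which patterns the mesenchyme of the lung and gut, had 34.0, 2.21 and 29.4 CPM in the knockout mice and 17.5, 5.54 and 10.4 CPM in the wild-type mice. Both followed the order seen for Hoxa9, with mouse 2 lowest in each genotype, and the genotypes overlapped. The highest library was 150 times the lowest for Hoxa7 and 15.4 times for Hoxa5. The lowest, knockout mouse 2, had 8 counts for Hoxa7, so that ratio is imprecise too, and 67 for Hoxa5.

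Hoxa10, known for its part in the uterus, had 4.58, 0 and 1.27 CPM in the knockout mice and 4.85, 0.283 and 0.336 CPM in the wild-type mice. Hoxa6 had 2.11, 0 and 1.51 CPM in the knockout mice and 0.963, 0.252 and 0.840 CPM in the wild-type mice. Knockout mouse 2 had no count for either gene, so the range is a lower bound, computed against 3 counts in that library. It was at least 48.9-fold for Hoxa10 and at least 21.3-fold for Hoxa6.

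Hoxa2, Hoxa3 and Hoxa4 were much steadier over the same libraries. Hoxa3, needed for the thymus and other pharyngeal organs, had 8.88, 3.63 and 7.63 CPM in the knockout mice and 6.18, 4.44 and 4.09 CPM in the wild-type mice. Its highest library was 2.45 times the lowest. The same ratio was 3.01 for Hoxa2, which patterns the hindbrain, and 3.21 for Hoxa4. Part of the Hoxa3 exon bases lies opposite antisense transcripts (25.4%), and reads of both strands cannot be told apart there, as no source used here says whether counting used strand.

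**Figure D1:**
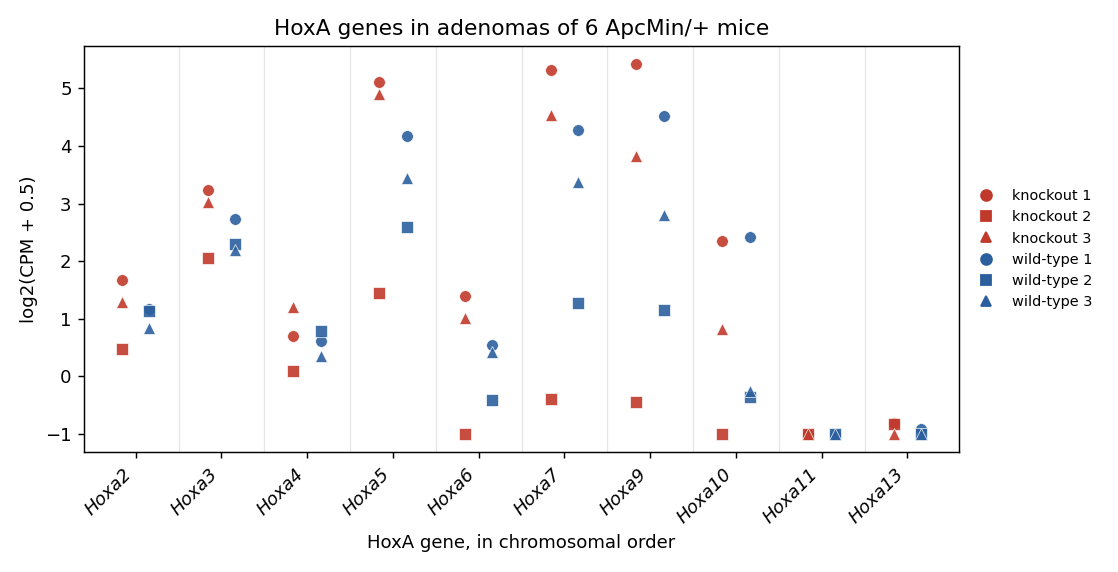
Level of 10 HoxA genes in each library, as log2(CPM + 0.5), with genes in chromosomal order, 3 knockout mice in red on the left of each gene and 3 wild-type mice in blue on the right. From Hoxa5 to Hoxa10 the square, mouse 2, is lowest in both genotypes, while Hoxa2 to Hoxa4 lie close together and Hoxa11 is at 0.

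**Figure D2:**
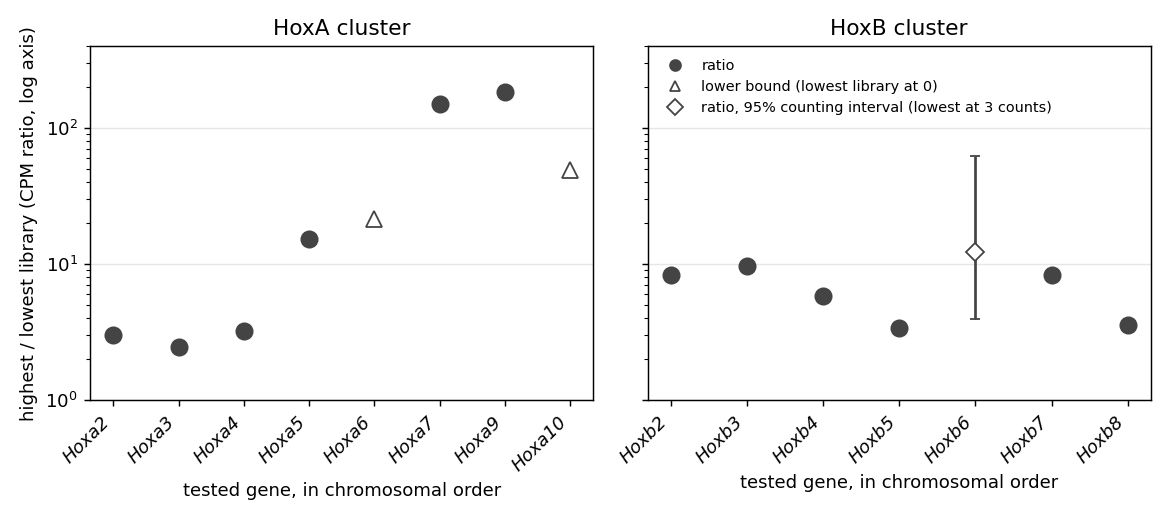
Ratio of the highest to the lowest library in CPM (log axis) for 8 tested HoxA genes and the 7 tested HoxB genes, with a lower bound where the lowest library had 0 counts and a 95% counting interval for Hoxb6, whose lowest library had 3 counts. HoxA ratios stay between 2.45 and 3.21 from Hoxa2 to Hoxa4 and lie at 15.4 or more from Hoxa5, and no HoxB gene read on more than 3 counts exceeds 9.76.

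The contrast within the cluster can be restated without any scaling between libraries. The genes were grouped by the values given above, so the shares use the same counts and are no separate evidence. Hoxa5, Hoxa6, Hoxa7, Hoxa9 and Hoxa10 together held 90.2% (Wilson 95% interval 89.3 to 91.1), 33.5% (27.9 to 39.6) and 85.4% (84.2 to 86.6) of the HoxA counts in knockout mice 1, 2 and 3. In wild-type mice 1, 2 and 3 they held 87.3% (85.9 to 88.6), 56.4% (52.2 to 60.5) and 81.3% (79.0 to 83.4). Mouse 2 of each genotype lay far below the other 4 mice. The intervals cover counting error alone and not the spread between mice, and the other 4 mice also lay outside one another's intervals. The ratio of Hoxa9 to Hoxa3 counts was 4.75, 0.0636 and 1.79 in the knockout mice and 3.63, 0.390 and 1.58 in the wild-type mice, in the same order.

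This spread was large for the transcriptome too. When the 17254 tested genes were ranked by the SD of log2(CPM + 0.5) within genotypes, Hoxa9 ranked 14th, Hoxa7 15th, Hoxa10 79th and Hoxa5 93rd. The SD was 2.45 for Hoxa9 and 1.56 for Hoxa5, against a median of 0.24 over all tested genes and 0.53 over the tested Hox genes. Of the 19 tested members, 4 lay among the 172 genes with the widest spread.

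The promoters of the 3 most abundant HoxA genes are shown because these genes move together between mice. Each is the 250 bases before the RefSeq start (GRCm38.p6, minus strand), with TTTATG and TTTATT, core letters of the Cdx binding motif, in capitals where either strand holds them. Hoxa5 lies at chr6:52204588-52204837, Hoxa7 at chr6:52218574-52218823 and Hoxa9 at chr6:52227371-52227620.
Hoxa5: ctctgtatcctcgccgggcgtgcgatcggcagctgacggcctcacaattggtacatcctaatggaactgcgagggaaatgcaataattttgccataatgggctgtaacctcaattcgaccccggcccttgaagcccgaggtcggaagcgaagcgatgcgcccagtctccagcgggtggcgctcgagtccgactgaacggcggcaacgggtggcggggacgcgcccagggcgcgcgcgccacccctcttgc
Hoxa7: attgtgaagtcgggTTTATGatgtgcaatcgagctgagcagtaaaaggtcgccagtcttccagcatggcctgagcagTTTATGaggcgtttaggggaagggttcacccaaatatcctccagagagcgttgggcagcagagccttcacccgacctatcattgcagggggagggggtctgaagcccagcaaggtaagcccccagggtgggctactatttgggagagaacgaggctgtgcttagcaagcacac
Hoxa9: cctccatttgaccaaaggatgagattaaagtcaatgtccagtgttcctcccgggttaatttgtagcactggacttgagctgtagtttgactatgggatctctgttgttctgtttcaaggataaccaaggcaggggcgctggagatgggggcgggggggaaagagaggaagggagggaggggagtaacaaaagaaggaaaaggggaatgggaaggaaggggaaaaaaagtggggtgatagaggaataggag
Hoxa7 held TTTATG at 2 places, and neither motif was found in the Hoxa5 and Hoxa9 windows. TTTATG was found on either strand in 5 of 24 Hox promoters (22 genes had at least 1 in the RefSeq table) and in 10.8% of all 32851 promoters of the same length. TTTATT was found in 5 of 24 and in 18.1%. TGATNNAT, the letters of a site for Hox with a TALE partner, was found in 4 of 24 and in 7.68%. A match here describes letters and not a bound site.

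Genes that mark position along the intestine also differed between these mice. Cybrd1, the iron reductase of the duodenal brush border and the most abundant of the 9 proximal genes, had 562, 3571 and 101 CPM in the knockout mice and 378, 3219 and 1467 CPM in the wild-type mice. Slc40a1, the iron exporter ferroportin, had 299, 1706 and 94.1 CPM in the knockout mice and 585, 1344 and 772 CPM in the wild-type mice. Mouse 2 was highest for both genes in both genotypes. Of the 9 proximal genes, 5 were highest in mouse 2 of both genotypes: Cybrd1, Slc40a1, Gata4, Onecut2 and Pdx1. The others went differently, and 3 of them were lowest in wild-type mouse 2. Lct, the lactase of the brush border, had 64.7, 149 and 270.2 CPM in the knockout mice and 178, 20.2 and 377 CPM in the wild-type mice. Fabp1, a fatty acid carrier, had 238, 533 and 487 CPM in the knockout mice and 470.04, 365 and 719 CPM in the wild-type mice. Ada, adenosine deaminase, had 455, 1249 and 476 CPM in the knockout mice and 1360, 527 and 1062 CPM in the wild-type mice. High values in mouse 2 were also not confined to proximal genes, since 2 of the 5 colon genes tested, Mettl7b and Slc37a2, were highest in mouse 2 of both genotypes. Slc37a2, a sugar phosphate transporter, had 12.1, 73.9 and 3.19 CPM in the knockout mice and 18.0, 37.6 and 9.99 CPM in the wild-type mice.

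Gata4, a transcription factor of the proximal small intestine, had 127, 189 and 131 CPM in the knockout mice and 157, 178 and 141 CPM in the wild-type mice. Over the 6 mice its relation with Hoxa9, both as log2(CPM + 0.5), had Pearson r = -0.859 (exact permutation p = 0.0333, two-sided, 720 orders) and Spearman rho = -0.829 (exact permutation p = 0.0583). Without knockout mouse 2 and wild-type mouse 2 its Pearson r was -0.213, so this relation rests on these mice. Heph, the iron oxidase hephaestin, had 126, 343 and 138 CPM in the knockout mice and 176, 189 and 255 CPM in the wild-type mice. Its Pearson r with Hoxa9 was -0.834 (exact permutation p = 0.0444), its Spearman rho -0.886 (exact permutation p = 0.0333), and its r without those mice -0.808. Leaving out the same mice took Fabp1 to r = -0.951, from -0.416 over all 6, and Lct to r = -0.958, from 0.177, so the 9 genes did not behave alike. The r values without these mice rest on 4 mice, and no p was computed for them. The mice left out were those farthest from the median of Hoxa9. None of the 9 proximal genes passed Benjamini-Hochberg adjustment over the 9 relations, with a lowest adjusted p of 0.200 for Pearson and 0.175 for Spearman by the exact permutation test. Apart from Cybrd1 and Onecut2, the proximal genes given here, and Slc37a2, were picked after their values were seen. Hoxa9 was itself picked from these values, as the member with the largest measured ratio of highest to lowest library. The permutation p-values allow neither for this choice nor for genotype. The 4 female and 2 male mice were too few for a correlation of their own.

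No gene of the proximal list passed the genotype test, and all 9 had a log2 fold change below 0, with a median of -0.31. Onecut2 had the smallest p, with 160, 284 and 190 CPM in the knockout mice and 302, 312 and 258 CPM in the wild-type mice (log2 fold change -0.46 ± 0.23 SE, edgeR adjusted p = 0.793). The ileal genes with too few counts to test were Fabp6, a bile acid carrier, and Fgf15, a bile-acid-induced hormone. They had at most 0.342 CPM for Fabp6 and 0.0629 CPM for Fgf15. Ileal genes were not absent as a group: the 6 tested lay between 0.808 CPM, for Slc10a2, and 68.3 CPM, for Slc51a. Whether tumor position plays a part in the HoxA spread was not tested, since the labels give no position.

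**Figure D3:**
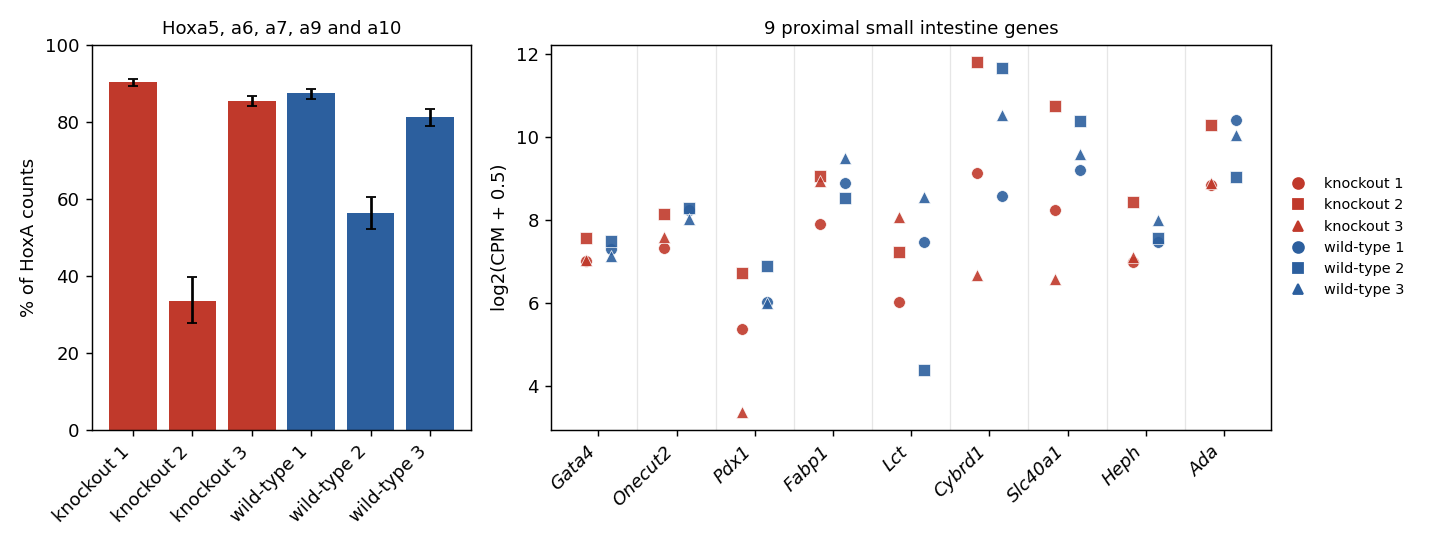
Share of HoxA counts held by Hoxa5, Hoxa6, Hoxa7, Hoxa9 and Hoxa10 (left, % with Wilson 95% intervals), and levels of the 9 proximal genes (right, log2(CPM + 0.5)) in each library, knockout mice in red and wild-type mice in blue. Mouse 2 of each genotype has the lowest HoxA share, 33.5% and 56.4%, and the highest level of 5 of the 9 proximal genes, while Fabp1, Lct and Ada are lowest in wild-type mouse 2.

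Between genotypes, no Hox gene passed. None of the 19 tested members had an adjusted p under 0.05 in edgeR's quasi-likelihood test (lowest 0.793, highest 0.993), and 0.0927% of all 17254 genes did. At an unadjusted p under 0.05 there were 3, all higher in the knockout tumors, where 3.27% of all genes were higher at that level and 5.85% differed in either direction. DESeq2 also called 0 and gave 3 at an unadjusted p under 0.05. The fitted log2 fold change lay above 0 for 19 of 19 tested members (51.1% of all genes), between 0.09 and 1.88 with a median of 0.87, against 0.01 for all genes. These members share libraries, and a member can enter the test through high counts in knockout mice alone, so the shared sign is a description. It did not hold in every fit: 15 of 19 lay above 0 with limma-voom, 17 with a term for sex and 16 without knockout mouse 1, where Hoxa2, Hoxa9 and Hoxa10 lay below 0. The median was 0.49 without knockout mouse 1 and 1.48 without knockout mouse 2. In 18 of the 19 the highest library was knockout mouse 1 (12 genes) or knockout mouse 3 (6 genes). Knockout mouse 2 did not share this: it was the lowest library of all for 8 genes.

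The 3 genes were Hoxb2, Hoxb3 and Hoxb4, neighbours in the HoxB cluster, and they were also the members whose genotypes did not overlap (3 of 19, where 5.86% of all genes did not overlap with the knockout higher and 11.2% in either direction). Hoxb4, known for expanding blood stem cells, had 8.71, 2.77 and 3.50 CPM in the knockout mice and 1.49, 2.42 and 2.41 CPM in the wild-type mice. Knockout mouse 1 was far above the rest, and knockout mouse 2 lay just above the highest wild-type mouse. The log2 fold change was 1.24 ± 0.49 SE (adjusted p = 0.793, edgeR).

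Hoxb3, which acts in the hindbrain and in pharyngeal organs, had 2.19, 0.627 and 1.15 CPM in the knockout mice and 0.280, 0.566 and 0.224 CPM in the wild-type mice. Its log2 fold change was 1.88 ± 0.58 SE (adjusted p = 0.793, edgeR), the smallest p of the family, and again knockout mouse 2 lay close to the wild-type mice. Hoxb2, a hindbrain gene needed for facial motor neurons, had 2.08, 1.12 and 0.720 CPM in the knockout mice and 0.249, 0.440 and 0.644 CPM in the wild-type mice. Its log2 fold change was 1.53 ± 0.53 SE (adjusted p = 0.793, edgeR). The antisense gene Hoxb3os lies opposite 52.9% of the Hoxb3 exon bases and 27.3% of those of Hoxb2, and none of those of Hoxb4, so the first 2 counts are uncertain. Hoxb3os itself had 13, 5 and 5 counts in knockout tumors, against 6, 5 and 4 in wild-type tumors.

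The other HoxB genes overlapped between genotypes. Hoxb7 had 1.16, 0.198 and 0.936 CPM in the knockout mice and 0.280, 0.503 and 0.140 CPM in the wild-type mice (log2 fold change 1.32 ± 0.72 SE, adjusted p = 0.801, edgeR). Hoxb6 had 0.987, 0.0991 and 1.03 CPM in the knockout mice and 0.342, 0.409 and 0.0840 CPM in the wild-type mice. For both, the lowest mouse of each genotype was its male, knockout mouse 2 and wild-type mouse 3. Among the tested members the same held for Hoxa2, Hoxa3, Hoxa4, Hoxb3 and Hoxd8, so it was not particular to Hoxb6 and Hoxb7. With a term for sex in the fit, the log2 fold change was 1.20 for Hoxb6 and 1.19 for Hoxb7 (edgeR adjusted p = 0.695 for both). Hoxb5, which acts in the enteric nervous system, had 1.69, 0.693 and 1.06 CPM in the knockout mice and 0.497, 1.16 and 0.840 CPM in the wild-type mice (log2 fold change 0.46 ± 0.46 SE, adjusted p = 0.840, edgeR). Hoxb8 lay between 0.155 and 0.552 CPM, and Hoxb9 had 11 counts in knockout mouse 3 and at most 2 in each other library.

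**Figure D4:**
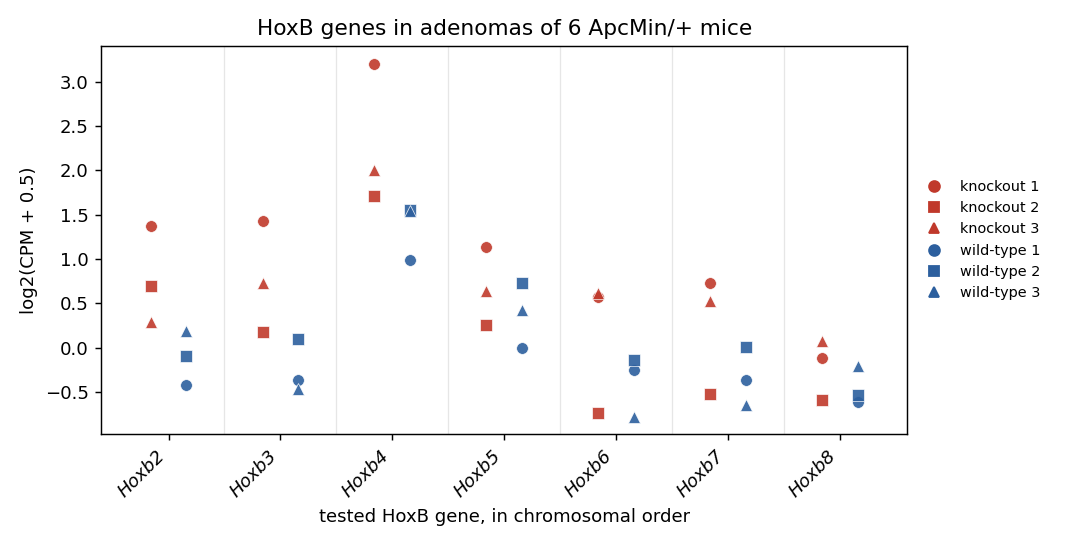
Level of each tested HoxB gene in each library, as log2(CPM + 0.5), knockout mice in red and wild-type mice in blue. Hoxb2, Hoxb3 and Hoxb4 show no overlap between genotypes, with knockout mouse 1 highest, and Hoxb5 to Hoxb8 overlap.

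For the abundant HoxA genes the spread between mice left wide intervals. The log2 fold change was 0.97 ± 0.87 SE for Hoxa5 (adjusted p = 0.827, edgeR), 1.02 ± 1.33 SE for Hoxa7 (adjusted p = 0.870) and 0.87 ± 1.41 SE for Hoxa9 (adjusted p = 0.896). Without knockout mouse 1 the Hoxa9 value was -0.56. With all mice it was -0.23 with limma-voom and -0.071 with a sex term, so its sign depended on the fit as well as on that library. Hoxa3 gave 0.45 ± 0.37 SE (adjusted p = 0.817) and Hoxa10 0.09 ± 1.52 SE (edgeR adjusted p = 0.993).

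HoxC and HoxD genes were read on few counts. Hoxc4 had 1.06, 0.0991 and 1.66 CPM in the knockout mice and 0.559, 0 and 0.224 CPM in the wild-type mice (log2 fold change 1.85 ± 1.16 SE, adjusted p = 0.805, edgeR). Hoxc5 had 0.529, 0.0330 and 1.22 CPM in the knockout mice and 0.404, 0 and 0.196 CPM in the wild-type mice (log2 fold change 1.59 ± 1.20 SE, adjusted p = 0.813, edgeR). Hoxc6, untested, had 10, 0 and 59 counts in knockout tumors, against 5, 0 and 7 in wild-type tumors. All 3 were highest in knockout mouse 3 and lowest in mouse 2 of both genotypes, and the genotypes overlapped.

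Hoxd8 was the only HoxD gene tested, with 0.881, 0.561 and 0.960 CPM in the knockout mice and 0.683, 0.472 and 0.364 CPM in the wild-type mice. Its log2 fold change was 0.67 ± 0.39 SE (adjusted p = 0.804, edgeR), its genotypes overlapped, and it differed by 2.64 times between the highest and lowest library. Hoxd9 had 2, 0 and 7 counts in knockout tumors, against 5, 9 and 7 in wild-type tumors. Hoxd4 had 0, 0 and 5 counts in knockout tumors, against 1, 6 and 5 in wild-type tumors.

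**Figure D5:**
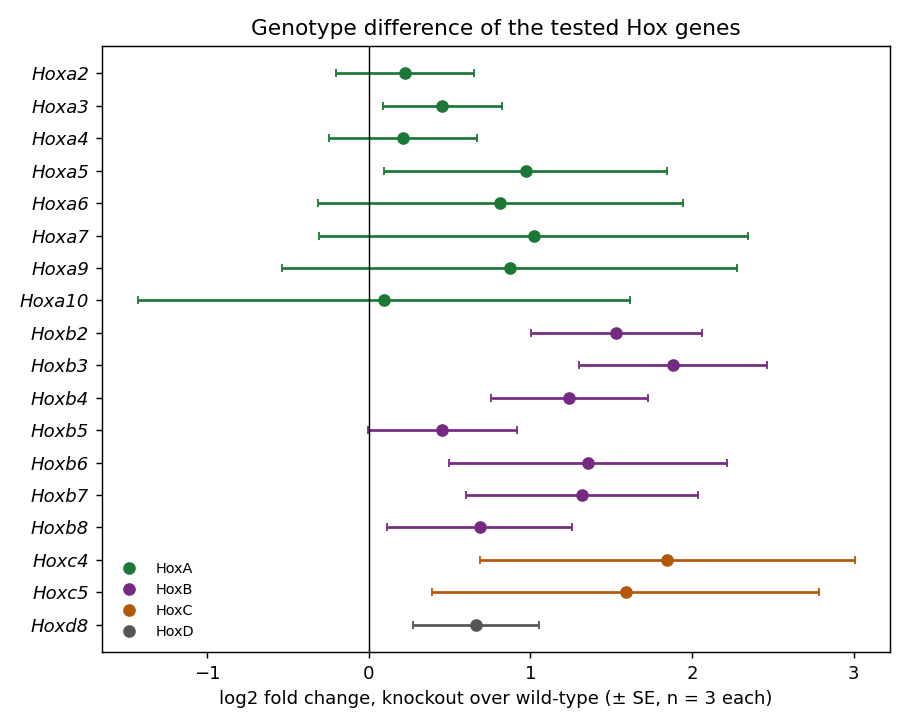
Log2 fold change, knockout over wild-type, with SE for 18 of the 19 tested Hox genes (n = 3 mice each), coloured by cluster. The 18 lie above 0, and the bars of Hoxa7, Hoxa9 and Hoxa10 are the widest of the HoxA and HoxB genes.

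The count of members at an unadjusted p under 0.05 depended on single mice. It was 9 without knockout mouse 2, 0 without knockout mouse 1, and 1 without wild-type mouse 1 or wild-type mouse 2, in place of 3. None passed adjustment in any of these fits. With knockout mouse 2 and wild-type mouse 2 both left out, a choice made after the data were seen, it was 9 again, and the log2 fold change of Hoxa5 came to 1.18 ± 0.26 SE with an edgeR adjusted p = 0.183.

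The missing microRNAs share the seed that base-pairs with their targets, bases 2 to 8, in capitals below from RefSeq (GRCm38.p6). miR-34a-5p lies at chr4:150068473-150068494 on the plus strand and miR-34b-5p at chr9:51103610-51103632 on the minus strand.
mmu-miR-34a-5p: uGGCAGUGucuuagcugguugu
mmu-miR-34b-5p: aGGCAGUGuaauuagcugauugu
The match to this seed is CACTGCC, and it lay in the longest annotated 3′ UTR (GENCODE M21, GRCm38) of 3 of 39 Hox genes (7.69%) and of 16.7% of the 14693 tested genes with such a UTR. Among the 19 tested Hox genes, CACTGCC lay in 2. Counting ACTGCCA as well, 5 of 39 Hox genes (12.8%) and 3 of the 19 tested ones held a match, as did 22.8% of tested genes. The tested Hox genes with a match were Hoxb4, Hoxb5 and Hoxc5, and their sites are shown with the match in capitals. All are on the plus strand, at chr11:96320953-96320975, chr11:96305202-96305224 and chr15:103015619-103015641.
Hoxb4 site: accctcagACTGCCAgatagcac
Hoxb5 site: cttccctgCACTGCCgctgcccg
Hoxc5 site: accgcctgCACTGCCtgtcttgc
None of these 3 genes passed between genotypes, and the values of Hoxb4, Hoxb5 and Hoxc5 are those given above. Hoxb2 and Hoxb3 held no match.

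Transcripts other than Hox genes within the clusters were few. At least 10 counts over the 6 libraries were seen for 7 of 21 other genes in HoxA, 5 of 9 in HoxB, 0 of 7 in HoxC and 1 of 10 in HoxD. The HoxA ones were Hotairm1, Gm27861, Gm27477, Hoxaas2, Gm15050, Hoxaas3 and 5730596B20Rik, which is annotated as protein-coding. The HoxB ones were Gm11539, Gm53, Hoxb5os, Gm11536 and Hoxb3os, and the HoxD one was Hoxd3os1. Hoxaas3 is an antisense RNA that spans Hoxa4, Hoxa5 and Hoxa6, so it covers steady and variable genes alike. It also overlaps exon bases of Hoxa3 and lies opposite 20.4% of those of Hoxa7. Hoxaas3 had 67, 21 and 112 counts in knockout tumors, against 63, 28 and 47 in wild-type tumors. It too was lowest in mouse 2 of each genotype, over a smaller range than Hoxa7. Hotair, the noncoding RNA of the HoxC cluster, had 0 counts in every library. None of those tested passed between genotypes.

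None of the partners and regulators of Hox genes passed between genotypes. In 9 lists of cofactors, cluster regulators, neighbours and intestinal position genes, 86 genes were tested and 0 were called, with 4 at an unadjusted p under 0.05 (lowest adjusted p = 0.793, edgeR). Of the 8 TALE cofactors tested, Pknox2 had the smallest p, with 1.20, 0.759 and 1.63 CPM in the knockout mice and 0.497, 0.598 and 0.672 CPM in the wild-type mice (log2 fold change 1.02 ± 0.38 SE, adjusted p = 0.793, edgeR).

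Cdx2, the intestinal homeobox factor that acts on Hox clusters, had 109, 123 and 91.9 CPM in the knockout mice and 131, 148 and 125 CPM in the wild-type mice. It was lower in each knockout mouse than in each wild-type mouse, where 11.2% of all genes did not overlap in either direction. Cdx2 did not pass (log2 fold change -0.32 ± 0.14 SE, adjusted p = 0.793, edgeR), and Cdx4 had 0 counts. Of 12 retinoic acid genes tested, the receptor Rxra was the most abundant, at 71.8 to 168 CPM. The retinoic acid receptor Rarb, named after its values were seen, had 34.2, 4.92 and 23.6 CPM in the knockout mice and 22.6, 20.9 and 18.9 CPM in the wild-type mice, with knockout mouse 2 alone low.

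Of 22 Polycomb genes, 17 had a log2 fold change above 0 with a median of 0.11, and Phf1 had the smallest p (log2 fold change -0.43 ± 0.16 SE, adjusted p = 0.793, edgeR). Rbbp7, the most abundant of them, lay between 173 and 251 CPM. Of 12 trithorax and demethylase genes, 11 lay above 0 with a median of 0.12. Kmt2d, a histone methyltransferase and the most abundant, lay between 144 and 172 CPM, and Men1 had the smallest p (log2 fold change 0.15 ± 0.11 SE, edgeR adjusted p = 0.813). These regulators varied between mice far less than Hoxa5 to Hoxa10.

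Just outside the clusters, 10 flanking genes were tested. Cbx5, the most abundant, lay between 142 and 207 CPM, and Ttll6 had the smallest p on 60 counts (log2 fold change -1.21 ± 0.46 SE, adjusted p = 0.793, edgeR). Evx1, the homeobox gene beyond Hoxa13 and named after its values were seen, had 5.25, 1.19 and 1.03 CPM in the knockout mice and 2.80, 0.881 and 2.02 CPM in the wild-type mice. Like Hoxa10, it was highest in mouse 1 of each genotype. Its lowest library was wild-type mouse 2, while that of Hoxa10 was knockout mouse 2, and knockout mice 2 and 3 lay close together for Evx1.

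Of 6 ileal genes tested, Slc51a, a bile acid exporter, was the most abundant and had the smallest p, with 24.5, 68.3 and 30.1 CPM in the knockout mice and 52.1, 58.9 and 59.6 CPM in the wild-type mice (adjusted p = 0.814, edgeR). Of 5 colon genes tested, Mettl7b was the most abundant, with 8.64, 41.7 and 9.29 CPM in the knockout mice and 26.2, 42.9 and 28.6 CPM in the wild-type mice. In both Slc51a and Mettl7b, knockout mouse 2 stood with the wild-type mice and not with knockout mice 1 and 3. Without knockout mouse 2, Slc51a (log2 fold change -1.06, adjusted p = 0.0490) and Mettl7b (-1.86, adjusted p = 0.0485) passed, and with mouse 2 of both genotypes left out Mettl7b did (-1.61, adjusted p = 0.0368, edgeR). Over all genes, 41 were called in the first of these fits and 26 in the second, against 16 with all mice. Leaving out mouse 2 of both genotypes was chosen after the data were seen.

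Markers of other cell types moved with some of these values. The 11 fibroblast markers summed to 1536, 793 and 2703 CPM in the knockout mice and 1101, 483 and 1380 CPM in the wild-type mice, lowest in mouse 2 of each genotype, as were Hoxa5 to Hoxa10 and Hoxc4. All 11 were detected, 9 had a log2 fold change above 0, the median was 0.76, and none passed. Col1a1, the most abundant, lay between 126 and 882 CPM, a much smaller range than that of Hoxa9, and Pdgfra had the smallest p (log2 fold change 1.08 ± 0.43 SE, adjusted p = 0.793, edgeR). The 9 smooth muscle markers summed to 801, 715 and 688 CPM in the knockout mice and 625, 279 and 433 CPM in the wild-type mice, with 9 of 9 above 0 and none passing. Like Hoxb2, Hoxb3 and Hoxb4, this sum did not overlap between genotypes, though Des and Cnn1 within it did. Of all tested genes, 11.2% did not overlap in either direction.

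Endothelial markers summed to 389, 339 and 462 CPM in the knockout mice and 311, 244 and 261 CPM in the wild-type mice. This sum did not overlap either, but its members were divided. Cdh5, Flt1, Vwf and Tie1 did not overlap between genotypes, while Pecam1, Kdr, Tek and Emcn did. Mast cell markers lay between 200 and 641 CPM in the knockout mice and between 59.1 and 426 CPM in the wild-type mice, leukocyte markers between 63.6 and 110 CPM and between 72.7 and 105 CPM, and enteric neuron and glia markers between 35.7 and 49.7 CPM and between 38.4 and 50.8 CPM. No marker in these lists was at 0 in all libraries, and none passed. The part of these cell types in the Hox values was not tested, and in bulk tumors fewer cells of a type and less RNA per cell cannot be told apart.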

How the data were processed

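The authors deposited whole-number counts for each gene, with its coordinates, in a table per library. The submitters' processing notes name TopHat2 2.1.0, HTSeq 0.6.1 and mm10. No source used here gives the annotation release, the strand setting or the handling of reads with several alignments, so genes with overlapping annotation are uncertain. RNA was purified from flash-frozen adenomas with a column kit, per the labels' protocols. Groups and replicate numbers come from the sample titles.

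Symbols, exon lengths, exon overlaps and 3′ UTRs were taken from GENCODE M21, and all 39 members were found. Genes were filtered with filterByExpr, which left 17254 of 46078, and scaled by TMM (factors 0.914 to 1.09). Genotypes were compared over all tested genes with edgeR 4.0.16 (R 4.3.3, robust quasi-likelihood F-test, Benjamini-Hochberg adjustment, threshold 0.05). SE is the size of the log2 fold change divided by the square root of F. Library totals were between 26375035 and 38354355 counts. PCR copies cannot be told from molecules in these counts, so intervals and limits for a count of 0 hold for counting error alone. Exact permutation tests and intervals used scipy 1.17.1 in Python 3.11.15. Alternatives were other scalings, filters, fits and tests (DESeq2 1.42.0, limma 3.58.1), a sex term, a replicate block and each mouse left out.

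Full statistics were given for the 3 members of each cluster with the highest TPM, the 5 with the smallest p and those whose groups do not overlap, where tested. In each gene list the gene with the smallest p and the most abundant gene were named, and noncoding genes with at least 10 counts. Some genes that this rule names are not reported here. The members and lists were chosen with earlier results of these data known.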

Additional observations from a re-analysis of the deposited data

How the results depend on the processing

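No Hox gene was called under any alternative, and the lowest adjusted p of a Hox gene in any of them was 0.139. Over all genes, 16 were called, against 110 with DESeq2, 9 to 41 with each mouse left out in turn, and 26 with both libraries of number 2 left out, which was chosen after the data were seen. Hox genes at an unadjusted p under 0.05 numbered 3, against 1 when at least 1 CPM in 3 libraries was required, which left fewer members tested (9), 0 to 9 with each mouse left out, and 9 with both libraries of number 2 left out. Of the cofactor, regulator and position genes 0 were called, against 0 to 2 with each mouse left out and 1 with both libraries of number 2 left out. The median log2 fold change of the tested Hox genes, 0.87, was 0.49 to 1.48 with each mouse left out, 0.41 with a sex term, 0.45 with limma-voom and 0.44 with at least 1 CPM in 3 libraries, beside a spread of 0.73 between knockout mice. Of 170 values under the alternatives for the 11 genes given full statistics, 166 kept their direction and side of the threshold and 4 reversed: Hoxa7 was -0.10 with limma-voom, and Hoxa9 was -0.071 with a sex term, -0.23 with limma-voom and -0.56 without knockout mouse 1 (between -0.56 and 2.16 with each mouse left out), and the cause was not tested. The other 8 tested genes gave 124 such values, of which 8 reversed, in 4 genes: Hoxa10 with limma-voom, with a sex term and without knockout mouse 1, wild-type mouse 2 or wild-type mouse 3 (lowest -1.48), Hoxa6 with limma-voom (-0.62), Hoxa2 without knockout mouse 1 (-0.15) and Hoxa4 without knockout mouse 3 (-0.27). Hox genes with a seed match numbered 3, against 0 for the 8mer CACTGCCA and 5 for either 7mer. Whether the replicate numbers pair the mice was not settled. The deviations of same-numbered libraries correlated at 0.289, 0.324 and 0.0857, and those of different-numbered libraries between -0.386 and 0.266. With the number as a replicate block, 14 genes were called, 2 Hox genes had an unadjusted p under 0.05, and their median log2 fold change was 0.48. Depth limits the 12 members at 0 and the 8 with too few counts to test, and the pooling of 3 tumors per mouse hides differences between tumors.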
